A study of Mus musculus with 6 samples.

Results

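The nuclear receptor corepressor (NCoR) complex was described here through the RNA of its 5 core subunit genes, Ncor1, Hdac3, Tbl1x, Tbl1xr1 and Gps2. They were chosen by name for their place in this complex and are 5 of the 27179 genes in the deposited counts. All 5 passed the filter on low values, a mean of at least 100 normalized counts, which left 11934 genes tested. RNA came from 3 immortalized mouse embryonic fibroblast (MEF) lines of C57BL/6 origin that lack clock repressors, with 2 libraries from independent RNA preparations per line. The 3 genotypes were cry1-/-, cry2-/-, per1-/-, per2-/- (Cry/Per_KO), the same 4 losses plus nr1d1-/- and nr1d2-/- (Cry/Per/Nr1d_KO), and per1-/-, per2-/-, nr1d1-/-, nr1d2-/- (Per/Nr1d_KO). Loss of both Per genes was therefore shared by all libraries, there was no wild-type line, and the cells grew in serum without synchronization and were lysed before full confluence. Cry/Per/Nr1d_KO was 1 clone made from Cry/Per_KO with CRISPR, while Per/Nr1d_KO came from earlier work. Each genotype was thus 1 line, the line and the genotype cannot be told apart, and p-values measure the spread between RNA preparations of a line.

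In the clock loop, the nuclear receptors NR1D1 and NR1D2 sit on response elements of genes such as Arntl, which encodes BMAL1, and repress them. They lack an activating helix and repress by binding NCoR1, a large scaffold protein that carries the histone deacetylase HDAC3. HDAC3 is active only when it is bound by the deacetylase activating domain of its scaffold. The related WD40 proteins TBL1X and TBL1XR1 join the scaffold to histones and to the machinery that exchanges corepressors for coactivators, and GPS2 binds both the scaffold and the TBL1 proteins. RNA levels say nothing of how much complex was assembled or where it was bound.

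For 2 of the 3 lines the genotype labels contradict the names of the count files, each calling Cry/Per_KO what the other calls Cry/Per/Nr1d_KO. Groups follow the genotype here, the disputed libraries are named as the pair labelled Cry/Per_KO and the pair labelled Cry/Per/Nr1d_KO, and Per/Nr1d_KO is not in dispute. Nr1d1 had 3158 and 3146 normalized counts in the pair labelled Cry/Per/Nr1d_KO, 9337 and 9249 in the pair labelled Cry/Per_KO, and 5359 and 4838 in Per/Nr1d_KO. RNA of Nr1d1 was thus present in all 6 libraries and lowest in the pair labelled Cry/Per/Nr1d_KO. Exons of Thra on the opposite strand cover 8.55% of the exon bases of Nr1d1, and the strand setting of the counting is not stated. Arntl, which NR1D proteins repress, had 1192 and 1171 normalized counts in the pair labelled Cry/Per/Nr1d_KO, below the 2176 and 2208 in the pair labelled Cry/Per_KO and the 2493 and 2455 in Per/Nr1d_KO. The library pair said to lack the repressors thus had the lowest Arntl level, which goes against its label. The paper reports lower RNA of Arntl, Cry1, Nr1d1 and Nr1d2 in Cry/Per_KO than in Cry/Per/Nr1d_KO. Here all were higher in the pair labelled Cry/Per_KO than in the pair labelled Cry/Per/Nr1d_KO, at log2 fold changes of 0.89, 1.66, 1.56 and 0.65. If the labels are exchanged, every difference between these pairs changes sign, and the comparisons of Per/Nr1d_KO with the one pair become those with the other.

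Library totals ran from 53764390 to 85927236 counts, and the correlation of log2 CPM values between the libraries of a line was 0.998 in each line. Of 10 fibroblast markers, 8 were tested, and their summed level lay between 867254 and 1731090 normalized counts. The sum was highest in Per/Nr1d_KO, where Col1a1, Col1a2, Col3a1 and Fn1 were higher than in either other pair, while Vim, Pdgfra, Pdgfrb and S100a4 were lower. Thy1 was at or near 0 in every library, at most 6.21 normalized counts. Summed levels were at most 137 normalized counts for 5 epithelial markers, 294 for 4 leukocyte markers, 138 for 4 endothelial markers and 112 for 4 muscle markers. The 4 neural markers summed to between 361, in the pair labelled Cry/Per_KO, and 1962, in the pair labelled Cry/Per/Nr1d_KO, nearly all of it from the tubulin gene Tubb3.

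Promoter sequences from RefSeq on GRCm38.p6, 250 bases before to 50 after a start, were matched for Ncor1 with 2 starts and for Tbl1x, Tbl1xr1 and Gps2 with 1 each. They were searched on both strands for AGGTCA, the hexamer bound by NR1D and related receptors, and for CACGTG, the E-box bound by CLOCK-BMAL1. Neither was found in these 5 windows, against 16.3% and 7.15% of all 32841 promoters of the same length. Hdac3 was not matched. Of the clock genes searched, AGGTCA was found in Nr1d2 and TAGGTCA, which contains it and occurs in 2.61% of promoters, in Arntl, while Nr1d1 held neither, and CACGTG was found in none of the 3. Of the other motifs searched, CCAAT, present in 37.4% of promoters, was found in Gps2, GGGCGG, the GC box present in 35.7%, in Ncor1, Tbl1x and Tbl1xr1, and CCGGAAG, an ETS factor motif present in 8.86%, in Ncor1 and Gps2. CCGGAAG is shown as the rarest of these, a choice made after the matches were seen, and the RNA of Ncor1 and that of Gps2 moved in different lines. Windows of 30 bases around these matches are shown with the match in capitals, on the strand of the gene, as Ncor1 chr11:62457367-62457396 on the minus strand, Gps2 chr11:69913981-69914010 on the plus strand, Nr1d2 chr14:18239166-18239195 on the minus strand and Arntl chr7:113207530-113207559 on the plus strand.
Ncor1: tccccaaccctCCGGAAGgaggaggagccc
Gps2: ccgtcgtgactCCGGAAGgatttatcctgg
Nr1d2: gattggaagaagAGGTCAggaccgctcgtt
Arntl: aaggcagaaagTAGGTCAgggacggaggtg
Relative to the start of the promoter entry, the matches begin 53 bases before for Ncor1, 28 before for Gps2, 77 before for Nr1d2 and 30 after for Arntl. The Ncor1 and Gps2 windows lie inside the gene spans given below, which reach further upstream than these starts. These 2 matches can therefore be in transcribed sequence. A match of letters is a description and not a bound site.

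Every subunit was abundantly expressed in every library, and none of the 5 reached the fold limit, a level more than 75% above that of the other group, in any comparison of the lines, beside 16.8% to 29% of all genes tested, a share at which 0 of 5 is no result about the subunits. Across the 6 libraries, the highest level of a gene was 1.08 times its lowest for Tbl1x, 1.21 times for Tbl1xr1, 1.36 times for Hdac3, 1.38 times for Ncor1 and 1.64 times for Gps2. What moved was the balance between them: Ncor1 was lower in Per/Nr1d_KO, Hdac3, like the median gene of its chromosome, was higher and Gps2 lower in the pair labelled Cry/Per_KO, and Tbl1x stayed nearly level. The plot of levels by library shows these patterns.

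**Figure D1:**
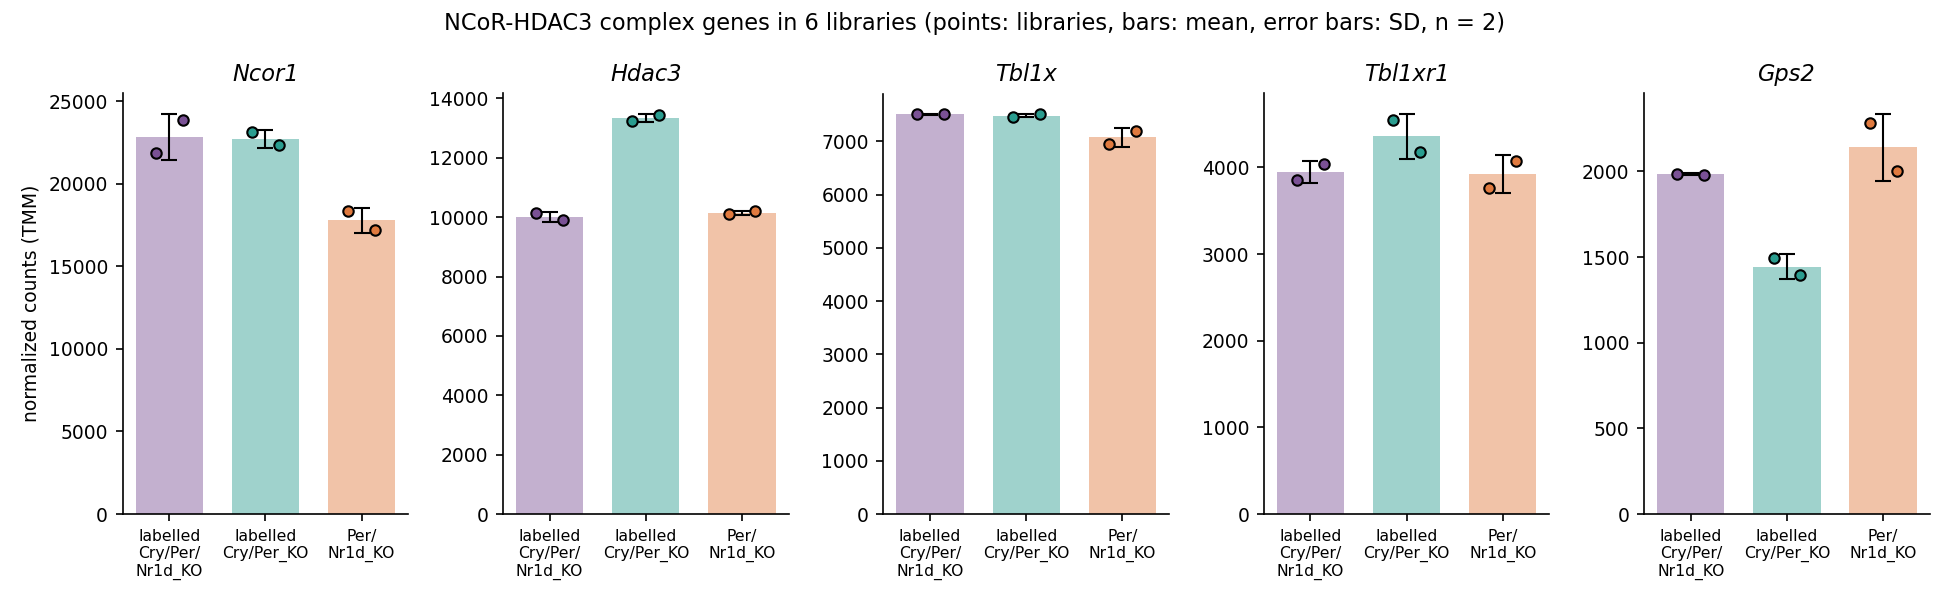
Normalized counts (TMM scaling, linear axis from 0) of the 5 complex genes in 6 libraries, as points for libraries, bars for the mean of a line and error bars for the SD (n = 2). Hdac3 stands at 13352 in the pair labelled Cry/Per_KO against 10015 and 10156 in the other lines, Gps2 at 1445 against 1984 and 2141, and Ncor1 at 17781 in Per/Nr1d_KO against 22842 and 22726.

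Ncor1 encodes the scaffold (Entrez Gene 20185, chromosome 11 of GRCm38, from 62315663 to 62457414, minus strand). It had 21839 and 23845 normalized counts in the pair labelled Cry/Per/Nr1d_KO, 23118 and 22333 in the pair labelled Cry/Per_KO, and 18337 and 17226 in Per/Nr1d_KO. The first 2 pairs overlapped, and both Per/Nr1d_KO libraries lay below all 4 others. Ncor1 was 1.28-fold lower in Per/Nr1d_KO than in the pair labelled Cry/Per/Nr1d_KO, log2 fold change -0.36 (standard error, SE, 0.050, adjusted p = 9.02e-06). Here and below, p comes from quasi-likelihood tests of edgeR and is adjusted by the Benjamini-Hochberg method over all 11934 genes. Against the pair labelled Cry/Per_KO the log2 fold change was -0.35 (SE 0.050, adjusted p = 8.73e-06 in edgeR), so this lower level holds with either reading of the labels. Between the disputed pairs the log2 fold change was -0.01, with a 95% interval from -0.11 to 0.099 (adjusted p = 0.90 in edgeR). Of the 8 fibroblast markers tested, 4 were higher and 4 lower in Per/Nr1d_KO against either pair, and their part in the level of Ncor1 was not tested. Their log2 fold changes against the pair labelled Cry/Per/Nr1d_KO ran from -2.83 for S100a4 to 5.72 for Col3a1. The leukocyte marker Cd68 was higher in Per/Nr1d_KO, by 1.14 (log2) against that pair and 0.81 against the pair labelled Cry/Per_KO. Tubb3 differed by -1.48 and 0.90 in this order, and the part of either gene was not tested. Of the 50-base stretches of Ncor1 transcripts, 1.14% also occur in other annotated genes.

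Hdac3 encodes the catalytic subunit (Entrez Gene 15183, chromosome 18 of GRCm38, from 37936971 to 37955015, minus strand). It had 10130 and 9901 normalized counts in the pair labelled Cry/Per/Nr1d_KO, 13253 and 13450 in the pair labelled Cry/Per_KO, and 10108 and 10204 in Per/Nr1d_KO. Both libraries of the pair labelled Cry/Per_KO lay above the other 4, which overlapped. Hdac3 was 1.33-fold higher in the pair labelled Cry/Per_KO than in the pair labelled Cry/Per/Nr1d_KO, log2 fold change 0.41 (SE 0.041, adjusted p = 2.88e-07 in edgeR). Per/Nr1d_KO was lower than the pair labelled Cry/Per_KO by log2 fold change -0.39 (SE 0.041, adjusted p = 3.14e-07 in edgeR). Against the pair labelled Cry/Per/Nr1d_KO it differed by 0.02 (log2), with a 95% interval from -0.069 to 0.11 (adjusted p = 0.67 in edgeR). With the median of the tested genes of chromosome 18 subtracted, the change between the disputed pairs came to 0.14 and kept its call (adjusted p = 0.0073 in edgeR). That of Per/Nr1d_KO against the pair labelled Cry/Per_KO came to 0.05 (adjusted p = 0.24 in edgeR), a lost call. No 50-base stretch of Hdac3 transcripts was shared with another annotated gene.

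The paralogs Tbl1x and Tbl1xr1 encode the WD40 adaptors. Tbl1x (Entrez Gene 21372) lies on the X chromosome of GRCm38 between 77509549 and 77662722, plus strand. It had 7508 and 7521 normalized counts in the pair labelled Cry/Per/Nr1d_KO, 7461 and 7508 in the pair labelled Cry/Per_KO, and 6943 and 7204 in Per/Nr1d_KO. The Per/Nr1d_KO libraries were the lowest, and the other 4 lay close together. No difference passed the test in edgeR. The log2 fold changes of Tbl1x were -0.01 between the disputed pairs (95% interval -0.098 to 0.087, adjusted p = 0.91), -0.09 in Per/Nr1d_KO against the pair labelled Cry/Per/Nr1d_KO (-0.18 to 0.0063, adjusted p = 0.083) and -0.08 against the pair labelled Cry/Per_KO (-0.17 to 0.012, adjusted p = 0.098).

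Tbl1xr1 (Entrez Gene 81004) lies on chromosome 3 between 22076253 and 22216594, plus strand. It had 3860 and 4039 normalized counts in the pair labelled Cry/Per/Nr1d_KO, 4544 and 4174 in the pair labelled Cry/Per_KO, and 3763 and 4075 in Per/Nr1d_KO. The pair labelled Cry/Per_KO were the highest, by a margin smaller than the gap between their own 2 values. Tbl1xr1 was 1.10-fold higher in the pair labelled Cry/Per_KO than in the pair labelled Cry/Per/Nr1d_KO, log2 fold change 0.14 (SE 0.057, adjusted p = 0.033 in edgeR). Per/Nr1d_KO was lower than the pair labelled Cry/Per_KO by log2 fold change -0.15 (SE 0.057, adjusted p = 0.023 in edgeR). Both calls were lost without the first library of the pair labelled Cry/Per_KO, at log2 fold changes of 0.080 and -0.089. The call between the disputed pairs was also lost without the first library of the pair labelled Cry/Per/Nr1d_KO (0.11) or the second of Per/Nr1d_KO (0.13), and the other without the first of Per/Nr1d_KO (-0.097). In Per/Nr1d_KO against the pair labelled Cry/Per/Nr1d_KO the log2 fold change was -0.01, with a 95% interval from -0.13 to 0.11 (adjusted p = 0.90 in edgeR). With the median of the tested genes of chromosome 3 subtracted, it came to -0.24 and passed the test (adjusted p = 0.0013 in edgeR). The change between the disputed pairs then came to 0.79, its call kept. That of Per/Nr1d_KO against the pair labelled Cry/Per_KO came to -1.03, past the fold limit.

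Gps2 encodes the small subunit that binds scaffold and adaptors (Entrez Gene 56310, chromosome 11 of GRCm38, from 69913980 to 69917056, plus strand). It had 1987 and 1980 normalized counts in the pair labelled Cry/Per/Nr1d_KO, 1495 and 1394 in the pair labelled Cry/Per_KO, and 2280 and 2002 in Per/Nr1d_KO. Both libraries of the pair labelled Cry/Per_KO lay below the other 4, the opposite side from Hdac3. Markers also differed between the disputed pairs, with 1 of the 8 fibroblast markers tested higher and 5 lower in the pair labelled Cry/Per_KO and Tubb3 lower by log2 fold change -2.38, and their part in the levels of Hdac3 and Gps2 was not tested. Gps2 was 1.37-fold lower in the pair labelled Cry/Per_KO than in the pair labelled Cry/Per/Nr1d_KO, log2 fold change -0.46 (SE 0.070, adjusted p = 2.82e-05 in edgeR). Per/Nr1d_KO was 1.48-fold higher than the pair labelled Cry/Per_KO, log2 fold change 0.56 (SE 0.070, adjusted p = 2.23e-06 in edgeR). Against the pair labelled Cry/Per/Nr1d_KO the log2 fold change was 0.11, with a 95% interval from -0.041 to 0.25 (adjusted p = 0.17 in edgeR). That difference passed the test, at 0.19, only without the second Per/Nr1d_KO library. Of the 50-base stretches of Gps2 transcripts, 2.75% also occur in Gm5221.

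**Figure D2:**
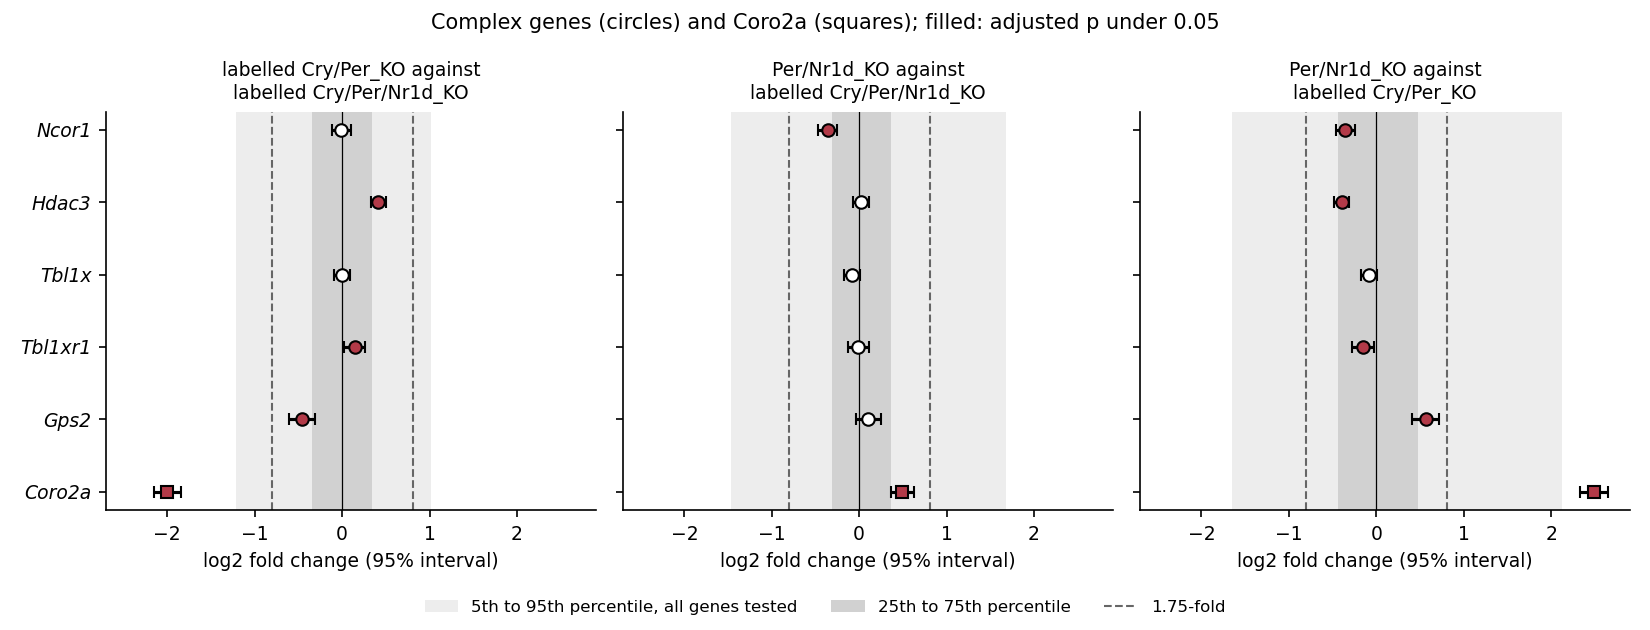
Log2 fold changes (edgeR) of the complex genes (circles) and of Coro2a (squares) in the 3 comparisons, with 95% intervals, filled where the adjusted p was under 0.05. All circles lie within the dashed lines of the fold limit, and grey bands give the spread of all 11934 genes tested.

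Most genes differed between these lines, so the counts of subunits are read against that background. Between the pair labelled Cry/Per_KO and the pair labelled Cry/Per/Nr1d_KO, 76.4% of all genes tested passed edgeR's test (adjusted p under 0.05; 38.1% higher and 38.3% lower), and 3 of the 5 subunits did. In Per/Nr1d_KO the share was 75.8% (38.7% higher and 37.1% lower) against the pair labelled Cry/Per/Nr1d_KO, where 1 of 5 subunits passed, and 82.1% (42.8% higher and 39.3% lower) against the pair labelled Cry/Per_KO, where 4 of 5 did. The shares that also passed the fold limit were 16.8%, 20.7% and 29% in the same order, with 0 of 5 subunits each time. The median absolute log2 fold change of the subunits was 0.14, 0.087 and 0.35, beside 0.34, 0.34 and 0.46 for all genes tested. The libraries of the compared pairs did not overlap for 4, 3 and 5 of the 5 subunits, against 86.4%, 87.1% and 90.4% of all genes. The called changes of Hdac3 and Gps2 between the disputed pairs and of Ncor1 in Per/Nr1d_KO against the pair labelled Cry/Per/Nr1d_KO were above these medians, and the other subunits of those comparisons were below them. In Per/Nr1d_KO against the pair labelled Cry/Per_KO only the change of Gps2, 0.56, was above the median, and those of Hdac3 and Ncor1 were below it. The calls of Hdac3, Gps2 and Ncor1 were kept whichever library was left out.

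Levels of different genes were compared as normalized counts per kilobase of annotated exon (GENCODE vM21). On this scale Hdac3 was the most abundant subunit in all 3 lines, at 2470 ± 39.9 (SD, n = 2) in the pair labelled Cry/Per/Nr1d_KO, 3293 ± 34.3 (SD, n = 2) in the pair labelled Cry/Per_KO and 2505 ± 16.7 (SD, n = 2) in Per/Nr1d_KO. Ncor1 came next, with means of 1783, 1774 and 1388 per kilobase in the same order of lines. Tbl1xr1 was the least abundant, with means of 444, 490 and 440. Gps2 and Tbl1x lay between and changed places, as Gps2 had 1237, 901 and 1335 per kilobase and Tbl1x 1066, 1061 and 1003. In Per/Nr1d_KO, Ncor1 at 1388 ± 61.3 (SD, n = 2) and Gps2 at 1335 ± 123 (SD, n = 2) did not differ beyond their spread. Exon lengths take in all annotated isoforms, so the order rests on that annotation.

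Ratios within a library do not depend on library scaling and show how the balance of the transcripts moved. Hdac3 to Gps2 per kilobase was 2.02 and 1.98 in the pair labelled Cry/Per/Nr1d_KO, 3.51 and 3.82 in the pair labelled Cry/Per_KO, and 1.754 and 2.017 in Per/Nr1d_KO. Gps2 to Ncor1 per kilobase was 0.727 and 0.663, 0.516 and 0.499, and 0.993 and 0.928 in this order, so each line had its own range. Hdac3 to Ncor1 was lowest in the pair labelled Cry/Per/Nr1d_KO, at 1.47 and 1.31, and lay between 1.74 and 1.90 in the other 4. Tbl1x to Tbl1xr1 ranged only from 2.07 to 2.46 over the 6 libraries. The catalytic and the GPS2 subunit transcripts therefore parted most in the pair labelled Cry/Per_KO, while the adaptor paralogs kept a near constant ratio.

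**Figure D3:**
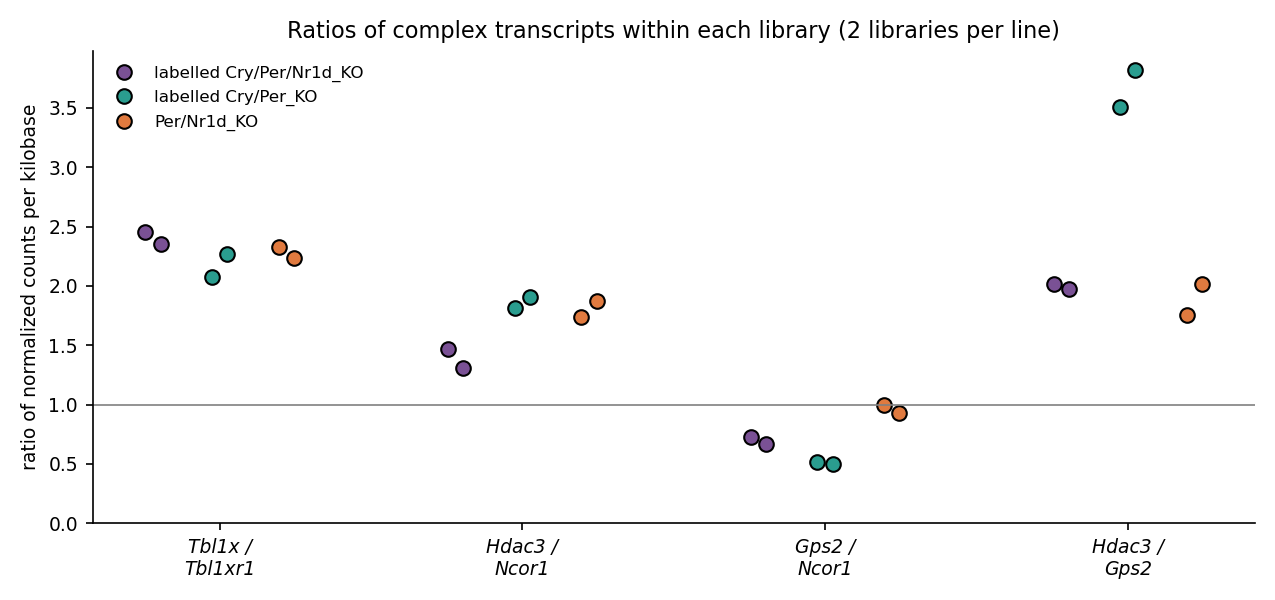
Ratios of normalized counts per kilobase between complex transcripts, 1 point per library, on a linear axis with a line at equal levels. Hdac3 to Gps2 is above 3.5 in both libraries of the pair labelled Cry/Per_KO and at most 2.02 in the others, and Tbl1x to Tbl1xr1 stays between 2.07 and 2.46.

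Coro2a encodes a coronin found in purified NCoR complexes. It had 1648 and 1539 normalized counts in the pair labelled Cry/Per/Nr1d_KO, 387 and 410 in the pair labelled Cry/Per_KO, and 2265 and 2229 in Per/Nr1d_KO. It was 3.99-fold lower in the pair labelled Cry/Per_KO than in the pair labelled Cry/Per/Nr1d_KO (log2 fold change -2.00, SE 0.074, adjusted p = 5.09e-12 in edgeR). Per/Nr1d_KO was 5.62-fold higher than the pair labelled Cry/Per_KO (log2 fold change 2.49, adjusted p = 6.02e-14 in edgeR). Beside the 5 subunits, of which none was beyond the fold limit, Coro2a was beyond it in these 2 of the 3 comparisons. So were 16.8% and 29% of all genes tested. Coro2a moved to the same side as Gps2. Exons of Gm16731 on the opposite strand cover 5.09% of the exon bases of Coro2a, and the strand setting of the counting is not stated.

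Whole chromosomes shifted between these lines, and the subunits were set beside the other genes of their chromosomes. The 316 tested genes of chromosome 18 had a median log2 fold change of 0.28 between the pair labelled Cry/Per_KO and the pair labelled Cry/Per/Nr1d_KO, and Hdac3, at 0.41, lay at percentile 63.6 among them. In Per/Nr1d_KO against the pair labelled Cry/Per_KO, the chromosome 18 median was -0.45 beside -0.39 for Hdac3. The 118 tested genes that start within 10 Mb of Hdac3 had medians of 0.35 and -0.38 in these comparisons, so Hdac3 moved there by about as much as its neighbours did. In Per/Nr1d_KO against the pair labelled Cry/Per/Nr1d_KO, Hdac3 stood at 0.02 beside medians of -0.21 for the chromosome and -0.11 for the neighbours, and with the chromosome median subtracted it came to 0.23, past the test (adjusted p = 0.00014 in edgeR).

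Tbl1xr1 did not move with chromosome 3. The 577 tested genes of this chromosome had a median log2 fold change of -0.65 between the pair labelled Cry/Per_KO and the pair labelled Cry/Per/Nr1d_KO, where Tbl1xr1 was at 0.14, percentile 90.5 of the chromosome. In Per/Nr1d_KO against the pair labelled Cry/Per_KO the median was 0.88 and Tbl1xr1 stood at -0.15, percentile 10.4. Its 28 tested neighbours within 10 Mb shifted less than the chromosome, with medians of -0.22 and 0.51. For Ncor1 and Gps2, medians over the 958 tested genes of chromosome 11 were 0.04, 0.01 and -0.03 in the 3 comparisons. The 230 tested neighbours of Gps2 within 10 Mb had medians of -0.10 between the disputed pairs and 0.090 in Per/Nr1d_KO against the pair labelled Cry/Per_KO, on the side of Gps2 but smaller. The 198 neighbours of Ncor1 had medians of 0.058 and 0.14 in Per/Nr1d_KO against the pairs labelled Cry/Per/Nr1d_KO and Cry/Per_KO, the opposite side from Ncor1. The 390 tested genes of the X chromosome, which holds Tbl1x, had medians of 0.02, -0.03 and -0.02.

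**Figure D4:**
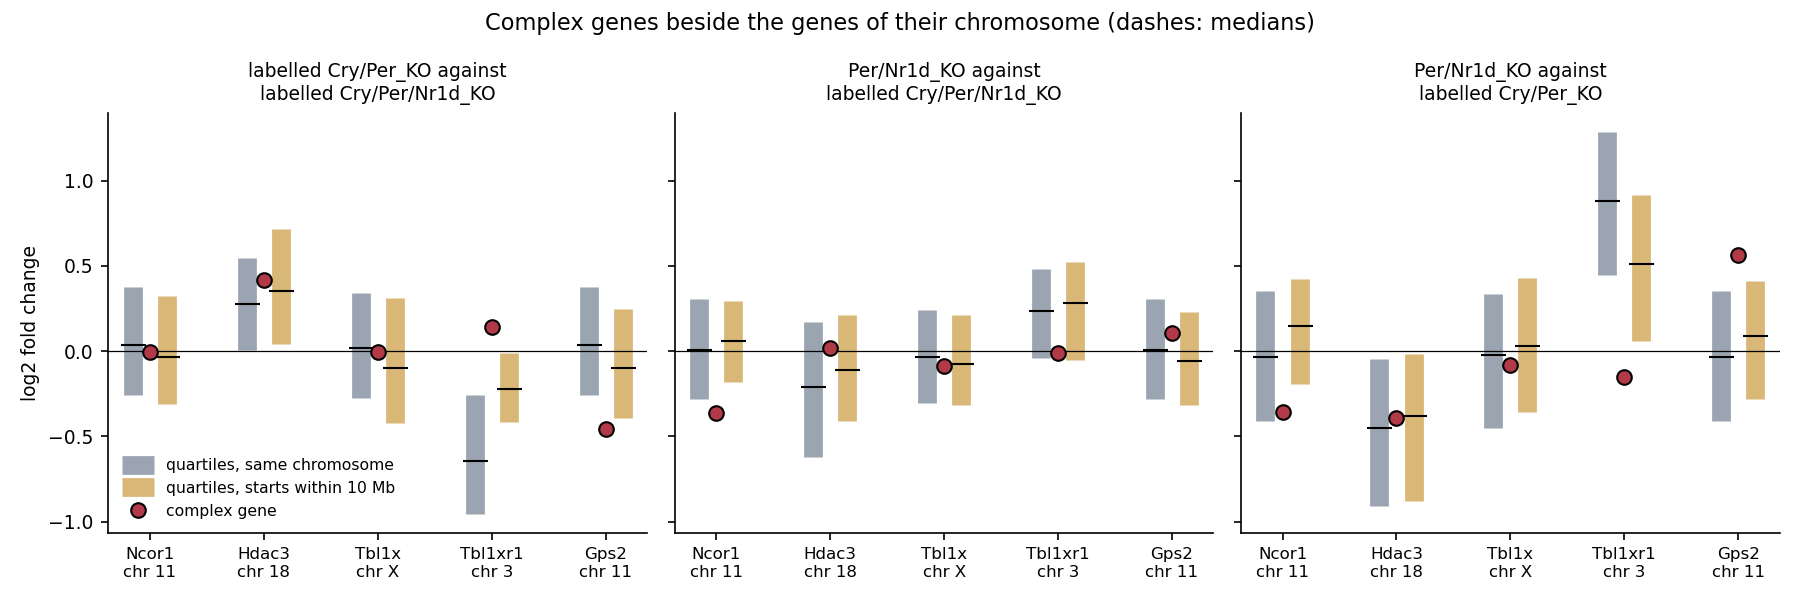
Log2 fold change of each complex gene (red point) beside the interquartile range and median (dash) of the tested genes on its chromosome (grey) and of those starting within 10 Mb (ochre), in the 3 comparisons. Hdac3 lies inside both of its ranges throughout, while Tbl1xr1 lies above the grey range in the left panel and below it in the right one.

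HDAC3 must be folded by the chaperonin TRiC before it joins the scaffold, and inositol phosphates and the kinase CK2 bear on its activity. All 12 genes listed for these steps were tested. Between the pair labelled Cry/Per_KO and the pair labelled Cry/Per/Nr1d_KO, 11 were lower, 0 higher and 1 did not pass the test, beside 38.1% of all genes higher and 38.3% lower, and their median log2 fold change was -0.52 beside 0.00 for all genes tested. Cct3, a TRiC subunit gene on chromosome 3, was the only one beyond the fold limit, with 37175 and 34745 normalized counts against 13310 and 13700, log2 fold change -1.41 (adjusted p = 5.00e-12 in edgeR). In Per/Nr1d_KO, 3 were higher and 7 lower against the pair labelled Cry/Per/Nr1d_KO, and 9 higher and 1 lower against the pair labelled Cry/Per_KO, beside 38.7% higher and 37.1% lower, and 42.8% and 39.3%, of all genes. Hdac3 RNA was thus highest in the pair in which most of these genes were lowest.

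Among 7 other class I and class IIa deacetylase genes, 1 was higher and 5 lower in the pair labelled Cry/Per_KO against the pair labelled Cry/Per/Nr1d_KO, beside 38.1% and 38.3% of all genes. The class IIa genes Hdac5 and Hdac9, whose proteins can bind the NCoR-HDAC3 core, passed the fold limit. Hdac5 had 4209 and 3971 normalized counts in the pair labelled Cry/Per/Nr1d_KO, 8121 and 8511 in the pair labelled Cry/Per_KO, and 4870 and 4486 in Per/Nr1d_KO. It was therefore highest in the same pair as Hdac3, with a log2 fold change of 1.02 against the pair labelled Cry/Per/Nr1d_KO (adjusted p = 1.92e-10 in edgeR). Hdac9 had means of 286, 56.3 and 17.1 normalized counts in the 3 lines in that order, of which the last 2 rest on few reads, 42 and 67 counts in the pair labelled Cry/Per_KO and 12 and 24 in Per/Nr1d_KO. It reached the filter only through the pair labelled Cry/Per/Nr1d_KO, so its call follows from how it was selected. In Per/Nr1d_KO, 2 of the 7 genes were higher and 3 lower against the pair labelled Cry/Per/Nr1d_KO, and 3 higher and 3 lower against the pair labelled Cry/Per_KO, where 75.8% and 82.1% of all genes passed.

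Of 22 nuclear receptors and other factors known to recruit NCoR, 17 were tested. Against the pair labelled Cry/Per/Nr1d_KO, 8 were higher and 6 lower in the pair labelled Cry/Per_KO, and 8 higher and 5 lower in Per/Nr1d_KO. Between Per/Nr1d_KO and the pair labelled Cry/Per_KO, 8 were higher and 6 lower. These 14, 13 and 14 of 17 lie near the 76.4%, 75.8% and 82.1% of all genes that passed. Pparg, the adipogenic receptor gene, had 0 and 1.11 normalized counts in the pair labelled Cry/Per/Nr1d_KO, 1.11 and 0 in the pair labelled Cry/Per_KO, and 887 and 851 in Per/Nr1d_KO, the line through which alone it reached the filter, so its call follows from how it was selected. Nr2f1, the gene of the orphan receptor COUP-TFI, went the other way, with 578 and 582 normalized counts in the pair labelled Cry/Per/Nr1d_KO, 942 and 912 in the pair labelled Cry/Per_KO, and 5.07 and 7.10 in Per/Nr1d_KO. In a library, 0 counts leave room for as many as 3, by counting error alone.

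Vdr, the vitamin D receptor gene, had 2047 and 1900 normalized counts in the pair labelled Cry/Per/Nr1d_KO, 993 and 972 in the pair labelled Cry/Per_KO, and 4231 and 4202 in Per/Nr1d_KO. Nr2f2, encoding COUP-TFII, was highest in the pair labelled Cry/Per/Nr1d_KO, at a mean of 6962 normalized counts against 2767 and 2761 in the pair labelled Cry/Per_KO and Per/Nr1d_KO. Rara, a retinoic acid receptor gene, was 1.84-fold higher in the pair labelled Cry/Per_KO than in the pair labelled Cry/Per/Nr1d_KO (adjusted p = 3.07e-09 in edgeR). Of 9 genes for turnover and exchange of the corepressor, 8 were tested, of which 3 were higher and 3 lower in the pair labelled Cry/Per_KO against the pair labelled Cry/Per/Nr1d_KO, where 76.4% of all genes passed. Among them Ube2d3, a ubiquitin-conjugating enzyme gene on chromosome 3, had a log2 fold change of -1.06 there (adjusted p = 2.06e-09 in edgeR). In Per/Nr1d_KO, 2 of the 8 were higher and 3 lower against the pair labelled Cry/Per/Nr1d_KO, and 4 higher and 4 lower against the pair labelled Cry/Per_KO, beside 75.8% and 82.1% of all genes that passed. Under median-of-ratios scaling, 5 instead of 3 were lower in the former comparison.

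Other deacetylase complexes were set beside the NCoR subunits. Between the pair labelled Cry/Per_KO and the pair labelled Cry/Per/Nr1d_KO, 9 of 15 SIN3 genes, 8 of 10 NuRD genes and 6 of 9 CoREST and CtBP genes passed the test, beside 76.4% of all genes, and none of them was beyond the fold limit. In Per/Nr1d_KO against the pair labelled Cry/Per/Nr1d_KO, 10, 7 and 5 passed, beside 75.8% of all genes, and Sap30, Brms1 and the NuRD gene Mbd2 were beyond the fold limit. Against the pair labelled Cry/Per_KO, 10, 10 and 7 passed, beside 82.1% of all genes, and the SIN3 gene Arid4a joined these 3. Mbd2, which encodes a reader of methylated DNA, had means of 8862, 10285 and 4179 normalized counts in the pair labelled Cry/Per/Nr1d_KO, the pair labelled Cry/Per_KO and Per/Nr1d_KO. Sap30, a SIN3 subunit gene, had 1206, 847 and 2215, and Brms1 had 1761, 1518 and 3151 in this order. Beside the 20.7% and 29% of all genes past the fold limit in the comparisons with Per/Nr1d_KO, the 2 and 3 of 15 SIN3 genes and the 1 of 10 NuRD genes were no larger a share.

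Of 12 genes of coactivators that replace NCoR on liganded receptors, 11 were tested, and in Per/Nr1d_KO 7 were lower and 2 higher against the pair labelled Cry/Per/Nr1d_KO, and 8 lower and 2 higher against the pair labelled Cry/Per_KO, beside 37.1% and 39.3% of all genes lower. Ncoa1, encoding the coactivator SRC-1, had 2501 and 2763 normalized counts in the pair labelled Cry/Per/Nr1d_KO, 4028 and 4175 in the pair labelled Cry/Per_KO, and 1494 and 1491 in Per/Nr1d_KO. Ppargc1b, encoding PGC-1 beta, had means of 420, 184 and 29.9 in this order. In the pair labelled Cry/Per_KO, 3 of the 11 were higher and 6 lower against the pair labelled Cry/Per/Nr1d_KO, beside 38.1% and 38.3% of all genes.

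**Figure D5:**
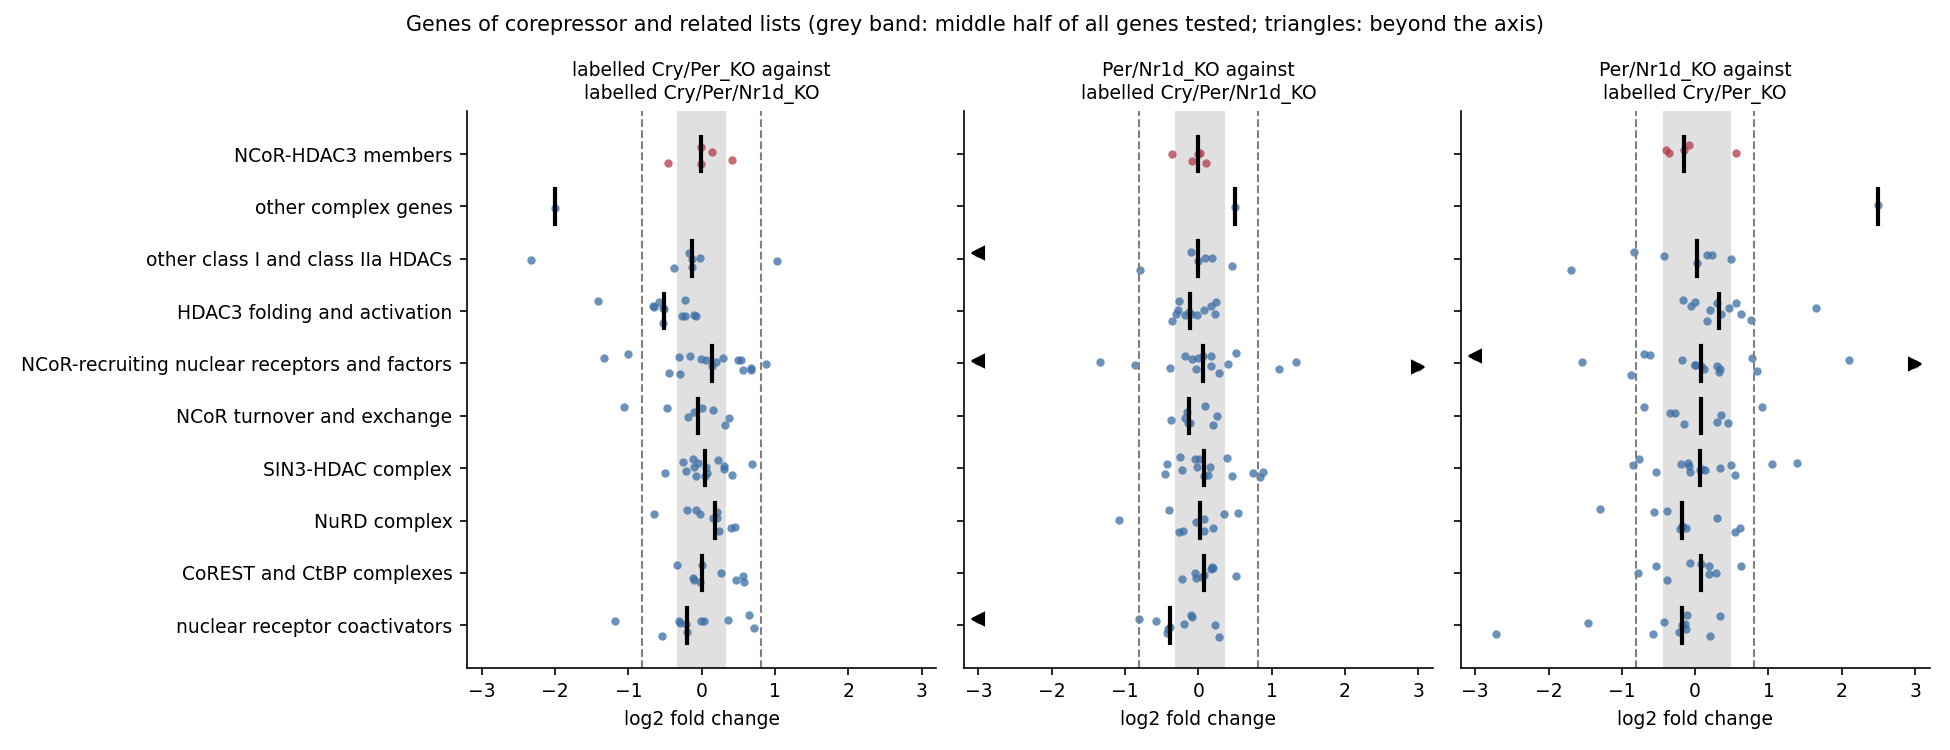
Log2 fold changes of the tested genes of each list in the 3 comparisons, as points with the list median as a bar, triangles for values beyond the axis, dashed lines at the fold limit and the grey band for the interquartile range of all genes tested. The 5 NCoR-HDAC3 subunits (red) all lie between the dashed lines, as do the CoREST and CtBP genes. Each of the other lists drawn has at least 1 gene beyond them in some comparison. The lists differ in length. Of all genes tested, 16.8% to 29% passed the fold limit, a share at which none of 5 is no result about the subunits.

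Genes known to be repressed by NR1D through this complex were compared as its readout. The 4 compared (Arntl, Npas2, Nfil3 and Cry1) were higher in the pair labelled Cry/Per_KO than in the pair labelled Cry/Per/Nr1d_KO, and lower if the labels are exchanged, beside 38.1% of all genes higher and 38.3% lower. In Per/Nr1d_KO, 3 were higher and 1, Cry1, was lower against either pair, where 75.8% and 82.1% of all genes passed. Npas2, with means of 45.4, 66.2 and 286 normalized counts, is 1 of these 3 and reached the filter only through Per/Nr1d_KO, so its higher level there follows from how it was selected. Arntl and Cry1, with 16.8% of all genes, were beyond the fold limit between the disputed pairs, at log2 fold changes of 0.89 and 1.66 (adjusted p = 2.42e-09 and 9.62e-13 in edgeR). Both disputed pairs are labelled cry1-/-, so their Cry1 RNA comes from a mutated locus. These changes were larger than any among the 5 subunits in the same comparison, of which that of Gps2 (-0.46) was the largest. The part of the complex in them was not tested.

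The genes whose log2 CPM values were most like those of each subunit over the 6 libraries were found by Pearson's r among 11763 tested genes. The libraries form 3 close pairs, so r describes little more than the order of 3 lines and carries no p. For Hdac3 they were Umad1 (0.9996), Commd10 (0.999) and Fam53c (0.999), and the last 2 also lie on chromosome 18. Among all genes compared, 147 were above 0.99 with Hdac3, 17 with Ncor1, 2 with Gps2, 1 with Tbl1x and 0 with Tbl1xr1. For Ncor1 they were Lsm12, Diaph2 and Eya3 (0.996 to 0.997), for Gps2 Kmt2d, Ewsr1 and Gstm1 (0.989 to 0.991), for Tbl1x Zfp955a, Ddx50 and Ctns (0.983 to 0.992), and for Tbl1xr1 Cenpp, Cbx3 and Sem1 (0.958 to 0.971). Kmt2d, a histone methyltransferase gene, had means of 10223, 7410 and 10809 normalized counts, low in the pair labelled Cry/Per_KO as Gps2 was.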

How the data were processed

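Poly-A RNA of 3 MEF lines was sequenced from stranded libraries as single-end reads of 50 bases. The authors mapped reads to mm10 with STAR and made the deposited counts per Entrez gene with featureCounts, whole numbers without normalization. Strand setting and multi-mapping are not stated. The deposited DESeq2 tables hold the authors' own comparisons and were not used. The analysis used R 4.3.3 and edgeR 4.0.16 (TMM, 1 quasi-likelihood fit of all 6 libraries in 3 groups, no replicate term) on genes whose mean reached 100 normalized counts, with Benjamini-Hochberg adjustment over all 11934. A gene differed at an adjusted p under 0.05 and passed the fold limit if also more than 75% above the other group. Standard errors are the log2 fold change divided by the square root of F. With chromosome medians subtracted, these were kept for a t-test, and the median was taken as free of error. The common biological coefficient of variation was 0.0393, and every SD rests on 2 libraries. Chi-square per degree of freedom between libraries of a line was 8.07 to 16.8, where sampling noise gives about 1.

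Symbols and coordinates came from RefSeq (GRCm38.p6, the assembly of mm10), which gave a symbol for 25275 genes, and exon lengths and shared stretches from GENCODE vM21. Genes were named by rule: the 5 subunits, Coro2a, Nr1d1, Nr1d2 and Arntl, up to 3 genes per other list and comparison past both limits with the largest change, and the 3 genes most like each subunit. Members and lists were chosen with earlier results of these data known, and some genes of the lists are not reported here. Marker genes were named after their values were seen. Alternatives were median-of-ratios scaling, no filter or a mean of at least 10, DESeq2 1.42.0 (also at an adjusted p under 1e-22), no fold limit, the compared groups alone, the replicate block, leaving out each library, exchanged labels and chromosome medians subtracted. On simulated data of Per/Nr1d_KO against the pair labelled Cry/Per/Nr1d_KO, with 200 of 11931 genes changed 1.5-fold, edgeR recovered 199 with 9 false calls. The simulation gave every gene the same dispersion and changed few genes, while 75.8% passed in the real comparison. It therefore checks the code and does not give the error rate of the calls made here.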

Additional observations from a re-analysis of the deposited data

How the results depend on the processing

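Over 12 alternatives, which leave aside exchanged labels and chromosome medians, 168 of 180 subunit values kept their direction and side of the threshold, and 0 passed the fold limit, which Tbl1xr1 did only with chromosome medians subtracted. Median-of-ratios scaling, the filters and DESeq2 changed none of them. Under median-of-ratios scaling 5 instead of 3 turnover genes and 8 instead of 7 coactivator genes were lower in Per/Nr1d_KO against the pair labelled Cry/Per/Nr1d_KO, and the other list counts were the same. The call of Tbl1xr1 between the disputed pairs was lost with the compared groups alone (0.13) and with the replicate number as a block (0.14, adjusted p = 0.057 in edgeR), the only call of a subunit changed by the block. The replicate numbers do not pair the libraries, since deviations of same-numbered libraries correlated at -0.21, -0.10 and -0.02, and with the block 2002, 2468 and 3457 genes passed both limits, against 2006, 2468 and 3457 without it.

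Leaving out each library gave Tbl1xr1 log2 fold changes from 0.080 to 0.20 between the disputed pairs, from -0.077 to 0.046 in Per/Nr1d_KO against the pair labelled Cry/Per/Nr1d_KO (0.025 without the second of these, 0.046 without the first Per/Nr1d_KO library) and from -0.21 to -0.089 against the pair labelled Cry/Per_KO. Ncor1 between the disputed pairs ranged from -0.069 to 0.057 (0.057 without the second library of the pair labelled Cry/Per/Nr1d_KO, 0.018 without the second of the pair labelled Cry/Per_KO). Gps2 in Per/Nr1d_KO against the pair labelled Cry/Per/Nr1d_KO ranged from 0.013 to 0.19.

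With exchanged labels, the log2 fold changes of Cry/Per_KO against Cry/Per/Nr1d_KO became 0.0072 for Ncor1, -0.41 for Hdac3, 0.0057 for Tbl1x, -0.14 for Tbl1xr1 and 0.46 for Gps2. Those of Per/Nr1d_KO against Cry/Per/Nr1d_KO became -0.39 for Hdac3, -0.15 for Tbl1xr1 and 0.56 for Gps2, and against Cry/Per_KO 0.020, -0.0082 and 0.11. With chromosome medians subtracted, Hdac3 came to 0.23 and Tbl1xr1 to -0.24 in Per/Nr1d_KO against the pair labelled Cry/Per/Nr1d_KO, both past the threshold, and Hdac3 to 0.054 against the pair labelled Cry/Per_KO, where Tbl1xr1 came to -1.03, past the fold limit. Between the disputed pairs Hdac3 came to 0.14 and Tbl1xr1 to 0.79, both calls kept.

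Genes past both limits numbered 2006, 2468 and 3457 in the 3 comparisons, and 3808, 4576 and 5590 without a filter. At a mean of at least 10 they numbered 3311, 3912 and 4996. Without a fold limit they numbered 9118, 9042 and 9793, and with DESeq2 at an adjusted p under 1e-22 they numbered 1149, 1803 and 2592. More genes enter without a filter, and the cause of the other shifts was not tested. Of the 1149, 479 were higher and 670 lower in the pair labelled Cry/Per_KO. The paper counts more genes higher than lower in Cry/Per_KO at these limits. With exchanged labels, higher and lower change places. Per/Nr1d_KO against Cry/Per/Nr1d_KO then has 2592 genes, nearer the paper's count than 1803. With 2 libraries per line from 1 line each, subunit differences of 0.11 (log2) or less did not pass the test, though some other genes changed by about as much did.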
